A study of Mus musculus with 18 samples.

Results

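The genes described here are 10 histone genes of mouse microglia: the linker histone genes Hist1h1c, Hist1h1e and H1f0, the H2B gene Hist1h2bc, the H2A variant genes H2afx, H2afy, H2afz and H2afv, and the H3.3 genes H3f3a and H3f3b. They were chosen by symbol, with their levels in the groups already known from earlier work on these data, so their levels are given as a description and carry no p-value. They are 10 of the 55414 gene identifiers listed and 10 of the 10948 genes that passed the filter on low counts, and all 10 passed that filter. Microglia, the resident macrophages of the brain, were profiled in 18 bulk RNA libraries. The groups were male KO (5 libraries), male WT (5 libraries), female KO (4 libraries) and female WT (4 libraries), where KO and WT refer to Chd8, which encodes a chromatin remodelling enzyme. The labels give tissue (brain), cell type, sex and genotype, and carry the unexplained prefix HX. Age, strain, the allele, the part of Chd8 removed, the cells it was removed from and the way the microglia were purified are not stated there. The labels do not say whether libraries came from separate animals, so every error below measures the spread between libraries.

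In chromatin, DNA is wound around a core of the histones H2A, H2B, H3 and H4, and a linker histone of the H1 family binds where the DNA enters and leaves that core. Most core histone genes are switched on when DNA is copied, and their mRNA ends in a stem-loop without a poly(A) tail. Variant histones such as H2A.Z and H3.3 are made throughout the cell cycle from polyadenylated mRNA and are placed by dedicated chaperones, which is why they are the main supply in cells that rarely divide. CHD8 is known from work in cultured cells to bind linker histone H1 and to recruit it to target genes of beta-catenin and p53.

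Hist1h1c (ENSMUSG00000036181, encoding H1.2) lies at chr13:23738808-23740367 on the plus strand of GRCm38, and Hist1h1e (ENSMUSG00000051627, encoding H1.4) lies at chr13:23620629-23622558 on the minus strand. Both sit in the large histone gene cluster of that chromosome, and both were lower in male KO than in male WT, so parts of their promoters are shown. The first pair of windows holds the H1 box, the letters AAACACA, in capitals, and the second pair holds CCAAT in capitals. Each window has 30 bases and is read 5′ to 3′ on the gene's own strand, from RefSeq with the build GRCm38.p6.
Hist1h1c, chr13:23738683-23738712, plus strand: gtgaagtgtaacAAACACAagttgggcgca
Hist1h1e, chr13:23622656-23622685, minus strand: ttgaggtgtaacAAACACAactccgcatct
Hist1h1c, chr13:23738740-23738769, plus strand: ggccgctggagcaCCAATcagcgcgcgcct
Hist1h1e, chr13:23622594-23622623, minus strand: gctggacagcgcaCCAATcacggcgcagct
The H1 box starts 112 bases before the RefSeq start of Hist1h1c and 115 before that of Hist1h1e, and CCAAT starts 54 and 52 bases before those starts. The H1 box windows of Hist1h1c and Hist1h1e share 21 of 30 bases, with a longest identical run of 15. The CCAAT windows share 19 of 30 bases, with a longest run of 10.

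RefSeq promoters, 250 bases before to 50 bases after each start, were matched for 8 of the 10 genes, not for Hist1h2bc and H2afx. Counting both strands, AAACACA was found in the promoters of Hist1h1c, Hist1h1e and H3f3a, in H3f3a on the opposite strand. CCAAT was found in those of Hist1h1c, Hist1h1e, H2afz, H2afv, H3f3a and H3f3b. Of all 26742 RefSeq promoters of this length, 7.16% held AAACACA, 37.9% held CCAAT and 2.73% held both. TATAAA was found in the promoters of Hist1h1e and H3f3b and in 14.1% of all promoters. None of the 3 motifs contains another, and a match is a run of letters, not a measured site.

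The 3′ ends matter here because the libraries were made from polyadenylated RNA. Where the mRNA of a gene ends in a stem-loop, its counts may cover only a polyadenylated part of that mRNA. The stem-loop core CTTTTCAG was found in the annotated 3′ UTR of Hist1h1c and Hist1h1e and in none of the other 8 genes. It was found in 5.82% of 21039 coding genes with a 3′ UTR and in 70.6% of the 51 other genes with Hist symbols. The poly(A) signal AATAAA lay in the last 50 bases of a transcript of Hist1h1c, H1f0, H2afz, H2afv, H3f3a and H3f3b. It lay there in 68.4% of the coding genes and in 25.5% of the other Hist genes. The GENCODE M21 annotation extends Hist1h1c for 883 bases and Hist1h1e for 1212 bases past the stop codon, so the transcripts annotated for these genes run well past the coding sequence.

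Depth ran from 435838 to 9149144 UMIs per library, a 20.99-fold range, where a UMI is a molecular barcode counted once per RNA molecule. Levels are UMI-corrected counts as CPM, each gene's share of its library's total, scaled by TMM, a method that sets libraries to a common baseline, and they are not divided by gene length, so they are compared between groups and not between genes. Reads per UMI fell into 3 ranges. They were 1.79 to 1.89 in 8 libraries, 7 of them male, 2.94 to 3.12 in 6 libraries, and 5.52 to 7.26 in 4 libraries, all female. Chd8 averaged 104 ± 8.52 CPM in male KO and 152 ± 12.7 CPM in male WT (SD, n = 5 each), and 123 ± 10.8 CPM in female KO and 166 ± 24.3 CPM in female WT (SD, n = 4 each). A 3′ tag may lie outside the part removed, in which case this level checks nothing. All 16 microglia markers had UMIs in the sum over all libraries. Their summed level was 66984 to 78556 CPM in male KO libraries, 73693 to 78165 CPM in male WT, 72070 to 78469 CPM in female KO and 65371 to 74453 CPM in female WT. In bulk RNA, fewer cells of a type and less RNA per cell cannot be told apart.

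Among males, all 3 linker histone genes were lower in KO than in WT, with no overlap between the groups for any of them. Hist1h1c, one of the H1 genes active in most cells, had 76.9, 81.2, 89.9, 95.8 and 105 CPM in male KO, against 232, 254, 206, 234 and 147 CPM in male WT. The lowest WT library lay above the highest KO library by a wide margin, and the fold change was −1.25 ± 0.15 on the log2 scale (SE), or 2.38-fold lower in KO. In females Hist1h1c had 85.0, 112, 121 and 87.5 CPM in KO, against 95.2, 61.3, 58.2 and 91.2 CPM in WT. The female groups overlapped, and the log2 fold change was 0.41 ± 0.19, in the opposite direction.

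The level of Hist1h1c therefore set male WT apart from the other groups. From high to low, the means were 215 ± 41.5 CPM in male WT (SD, n = 5), 101.3 ± 17.9 CPM in female KO (n = 4), 89.7 ± 11.2 CPM in male KO (n = 5) and 76.5 ± 19.4 CPM in female WT (n = 4). The ranges of female KO, male KO and female WT overlapped one another, while all 5 male WT libraries stood above the 13 others. The male WT over female WT difference was 1.46 ± 0.18 on the log2 scale, and the male KO over female KO difference was −0.20 ± 0.17. The difference between the KO effects, female minus male, was 1.66 ± 0.24 on the log2 scale.

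**Figure D1:**
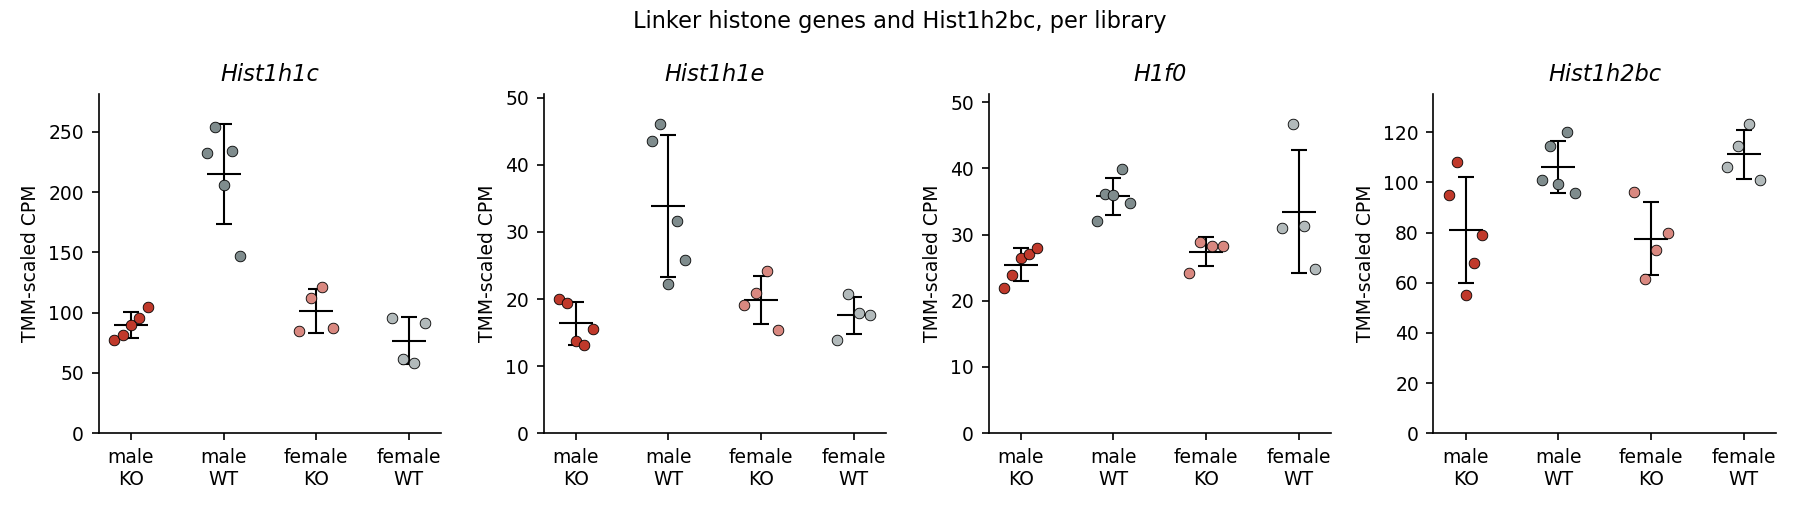
TMM-scaled CPM (vertical axes, linear and starting at 0) of Hist1h1c, Hist1h1e, H1f0 and Hist1h2bc, with 1 point per library and bars for the mean and SD of male KO (n = 5), male WT (n = 5), female KO (n = 4) and female WT (n = 4). For Hist1h1c the male KO libraries sit between 76.9 and 105 CPM and the male WT libraries between 147 and 254 CPM, above all other points.

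Hist1h1e had 20.1, 19.4, 13.8, 13.1 and 15.5 CPM in male KO, against 43.5, 46.0, 22.2, 31.6 and 25.9 CPM in male WT. The groups did not overlap, but the lowest WT library was close to the highest KO library, and the log2 fold change was −1.07 ± 0.19. In females Hist1h1e averaged 19.9 ± 3.62 CPM in KO and 17.6 ± 2.81 CPM in WT (SD, n = 4 each), with overlapping groups and a log2 fold change of 0.24 ± 0.26. Again male WT was the highest group, at 33.8 ± 10.6 CPM (n = 5), and the other 3 groups overlapped, with 16.4 ± 3.20 CPM in male KO (n = 5). Hist1h1e overlaps Hist1h2be on the same strand, so 3′ tags in the overlap may be counted for either gene or for neither. Hist1h2be itself received 181 UMIs summed over all 18 libraries.

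H1f0 encodes H1.0, a linker histone that accumulates in differentiated cells and whose mRNA is polyadenylated. It had 21.9, 23.9, 26.4, 27 and 28.03 CPM in male KO, against 32.03, 36.2, 36.0, 39.9 and 34.7 CPM in male WT. These groups did not overlap, and the log2 fold change was −0.48 ± 0.14, smaller than for the other linker genes. In females it had 24.2, 28.9, 28.3 and 28.3 CPM in KO, against 31.0, 46.6, 31.3 and 24.8 CPM in WT. One female WT library lay within the KO range, and the log2 fold change was −0.32 ± 0.18, in the same direction as in males. Without female WT replicate 31, the library at 46.6 CPM, the female fold change was −0.06. From high to low the group means were 35.8 ± 2.83 CPM in male WT, 33.4 ± 9.30 CPM in female WT, 27.4 ± 2.16 CPM in female KO and 25.4 ± 2.51 CPM in male KO (SD, n = 5, 4, 4 and 5). Neighbours in this order overlapped in each case.

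Summed over the 3 linker genes, the level was 132 ± 11.3 CPM in male KO and 284 ± 49.97 CPM in male WT (SD, n = 5 each), against 149 ± 22.4 CPM in female KO and 127 ± 14.1 CPM in female WT (SD, n = 4 each). The composition of this sum moved as well, a measure that does not depend on how libraries are scaled. Hist1h1c gave 64.7% to 70.6% of the linker UMIs in male KO, against 70.8% to 78.0% in male WT. H1f0 gave 18.4% to 20.3% in male KO, against 10.4% to 16.7% in male WT. In females Hist1h1c gave 68.0% ± 1.77 in KO and 59.5% ± 10.3 in WT, and H1f0 gave 18.7% ± 2.21 in KO and 26.5% ± 7.84 in WT (SD, n = 4 each). The 8 other linker histone genes listed were too low to be tested, and 3 of them had no UMI in any library.

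The lower linker levels were also seen between male libraries that share a range of reads per UMI. In the lowest range (4 male KO, 3 male WT) the log2 fold change was −1.07 for Hist1h1c, −0.95 for Hist1h1e and −0.40 for H1f0. In the middle range (1 male KO, 2 male WT) it was −1.58, −0.99 and −0.66. Transcripts of other brain cells moved with the male groups. Summed neuronal markers reached 71.7 to 339 CPM in male KO libraries, against 14.7 to 39.2 CPM in male WT libraries. Astrocyte markers reached 275 to 589 CPM in male KO libraries against 139 to 199 CPM in male WT libraries, and oligodendrocyte lineage markers 302 to 881 CPM against 174 to 230 CPM. In the edgeR fit 5 of 5 neuronal, 4 of 5 astrocyte and 3 of 6 oligodendrocyte lineage markers tested rose in male KO. Of the 6 oligodendrocyte lineage markers, 1 was called lower in male KO. Every listed neuronal, astrocyte and oligodendrocyte lineage marker had UMIs in the sum over all libraries. Of 10 markers of border-associated macrophages 8 rose as well, while their summed level was 895 to 1199 CPM in male KO libraries, against 846 to 1069 CPM in male WT libraries. Without male KO replicates 6, 9 and 17, which held the most neural transcripts, the fold changes were −1.09 for Hist1h1c, −1.22 for Hist1h1e and −0.37 for H1f0. The male KO libraries kept also held more neuronal, astrocyte and oligodendrocyte lineage transcripts than any male WT library. The part of these and of border-associated macrophage transcripts in the lower linker levels was therefore not tested.

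Hist1h2bc encodes an H2B protein of the same histone cluster (ENSMUSG00000018102, chr13:23684199-23692908, plus strand). It was lower in KO in both sexes. It had 96.3, 61.4, 72.9 and 79.8 CPM in female KO, against 106, 115, 123 and 101 CPM in female WT. All 4 female KO libraries lay below all 4 WT libraries, and the log2 fold change was −0.52 ± 0.18. In males it had 95.2, 108, 55.3, 67.9 and 78.9 CPM in KO, against 101.1, 114, 99.5, 120.2 and 95.7 CPM in WT. A single KO library, replicate 9, lay within the WT range, and the log2 fold change was −0.40 ± 0.15. Averaged over the sexes the fold change was −0.46 ± 0.12 on the log2 scale, close to −0.42 ± 0.12 for Hist1h1c, −0.41 ± 0.16 for Hist1h1e and −0.40 ± 0.11 for H1f0. The average covers male and female values of opposite sign for Hist1h1c and Hist1h1e, and of 1 sign for H1f0 and Hist1h2bc. The female value of Hist1h1e was smaller than its SE and ran from −0.14 to 0.38 under 19 other settings. Neither female value, of Hist1h1c or of Hist1h1e, was called in any setting. Within the middle range of reads per UMI the male fold change of Hist1h2bc was −0.11 ± 0.25.

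**Figure D2:**
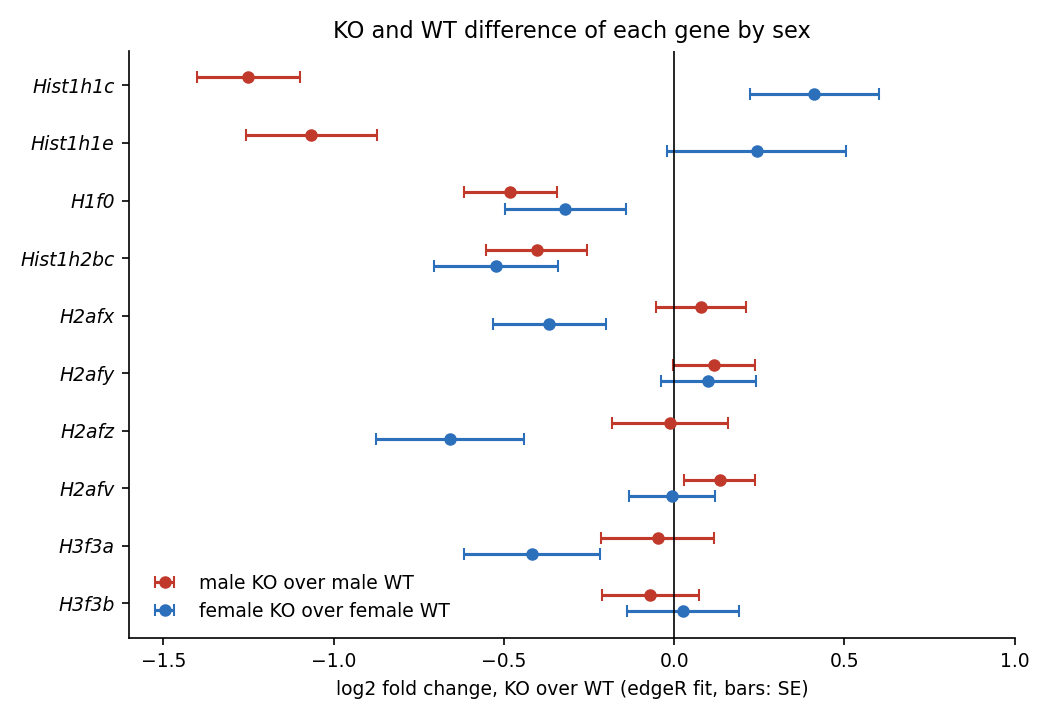
Log2 fold change of KO over WT (horizontal axis) of the 10 genes, in males (red, upper point of each pair) and females (blue, lower point), with bars for the SE of the edgeR fit. Hist1h1c and Hist1h1e lie at −1.25 and −1.07 in males and right of 0 in females, while H1f0 and Hist1h2bc lie left of 0 in both sexes.

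The H2A variant genes differed little between male KO and male WT. H2afx (ENSMUSG00000049932, chr9:44334694-44336077) encodes H2A.X, the variant phosphorylated at DNA breaks. It averaged 29.2 ± 1.92 CPM in male KO and 27.6 ± 3.34 CPM in male WT (SD, n = 5 each), with a log2 fold change of 0.08 ± 0.13. In females it averaged 27.4 ± 4.81 CPM in KO and 37.6 ± 7.18 CPM in WT (SD, n = 4 each), with a log2 fold change of −0.37 ± 0.17 and groups that overlapped. Female WT was the highest group for H2afx, and the male WT over female WT difference was −0.43 ± 0.15 on the log2 scale. The male WT mean lay between the KO means, and those 3 groups overlapped.

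H2afy (ENSMUSG00000015937, chr13:56073619-56136361) encodes macroH2A1, a variant with a large extra domain found on silenced chromatin. It averaged 229 ± 6.39 CPM in male KO and 211 ± 16.7 CPM in male WT, and 239 ± 59.0 CPM in female KO and 226 ± 30.4 CPM in female WT. Its log2 fold changes were 0.12 ± 0.12 in males and 0.10 ± 0.14 in females, and the 4 groups overlapped. The female KO libraries spread from 167 to 302 CPM, while the male KO libraries stayed between 219 and 235 CPM.

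H2afz (ENSMUSG00000037894, chr3:137864487-137866922) and H2afv (ENSMUSG00000041126, chr11:6427229-6444443) encode H2A.Z.1 and H2A.Z.2, variants found beside active gene starts. H2afz had 38.1, 35.9, 34.8 and 28.3 CPM in female KO, against 54.2, 66.9, 33.6 and 58.4 CPM in female WT. A single WT library, replicate 34, one of the pair of lowest depth, lay within the KO range, and the log2 fold change was −0.66 ± 0.22. On read counts without UMI correction this difference was −0.19. In males H2afz averaged 44.2 ± 6.41 CPM in KO and 44.0 ± 13.0 CPM in WT, a log2 fold change of −0.01 ± 0.17. The difference between the KO effects on H2afz, female minus male, was −0.65 ± 0.28 on the log2 scale. From high to low the groups were female WT at 53.3 ± 14.1 CPM, male KO and male WT as given above and female KO at 34.3 ± 4.22 CPM, with overlap between neighbours. All 5 male KO libraries lay above all 4 female KO libraries.

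H2afv stayed within a narrower band, at 104 ± 5.49 CPM in male KO, 94.7 ± 8.98 CPM in male WT, 97.5 ± 4.81 CPM in female KO and 98.9 ± 17.8 CPM in female WT. Its log2 fold changes were 0.13 ± 0.10 in males and −0.01 ± 0.13 in females, and the groups overlapped. H2afz gave 25.9% ± 1.73 of the UMIs of this pair in female KO and 34.9% ± 8.33 in female WT (SD, n = 4 each), and 29.8% ± 2.43 in male KO and 31.3% ± 5.74 in male WT (SD, n = 5 each). These ranges overlapped. The share depended on the unit: from read counts without UMI correction it was 14.8% in female KO and 19.1% in female WT, and 19.7% in male KO and 20.6% in male WT. Summed over the 4 H2A variant genes the level was 406 ± 14.6 CPM in male KO and 378 ± 29.6 CPM in male WT, and 399 ± 69.6 CPM in female KO and 415 ± 46.2 CPM in female WT.

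**Figure D3:**
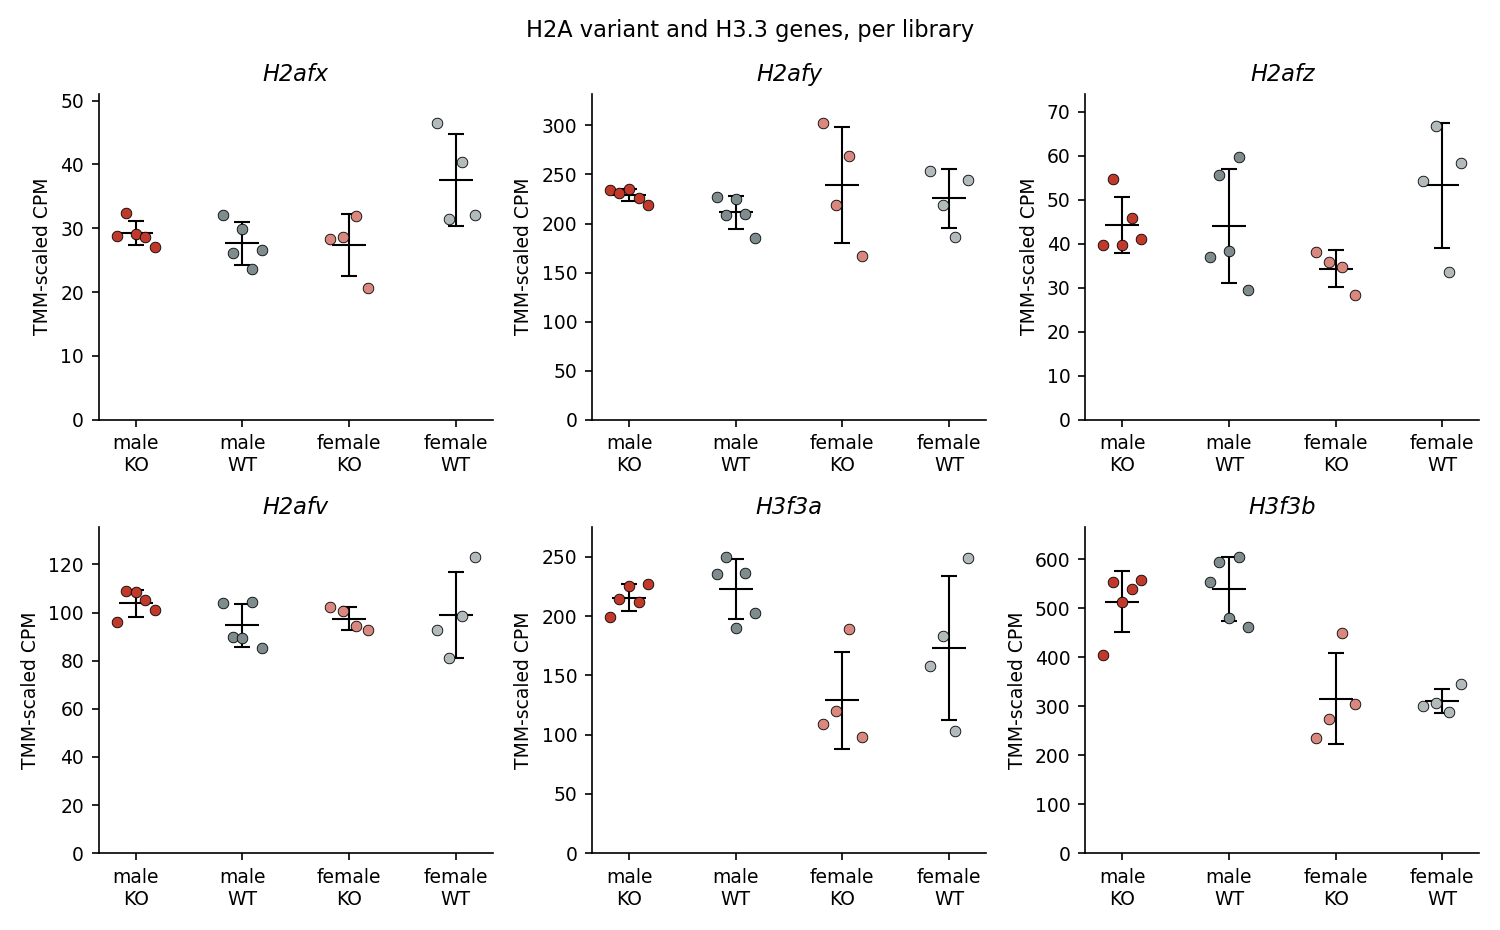
TMM-scaled CPM (vertical axes, linear and starting at 0) of the H2A variant genes H2afx, H2afy, H2afz and H2afv and the H3.3 genes H3f3a and H3f3b, with 1 point per library and bars for the mean and SD of male KO (n = 5), male WT (n = 5), female KO (n = 4) and female WT (n = 4). For H3f3b the means differ by sex more than by genotype, with 514 and 539 CPM in males and 316 and 310.4 CPM in females.

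H3f3a (ENSMUSG00000060743, chr1:180800832-180813943) and H3f3b (ENSMUSG00000016559, chr11:116021912-116027962) encode the same H3.3 protein, the H3 form placed outside DNA replication. Levels of H3f3b differed between the sexes more than between the genotypes. For H3f3a the female KO over WT difference was larger in size than the difference between the sexes in WT. H3f3b had 405, 554, 513, 540 and 558 CPM in male KO and 554, 594, 481, 605 and 462 CPM in male WT, a log2 fold change of −0.07 ± 0.14. It had 236, 273, 450 and 304 CPM in female KO and 300.4, 307, 289 and 345 CPM in female WT, a log2 fold change of 0.03 ± 0.17. All 5 male WT libraries lay above all 4 female WT libraries, and the male over female difference was 0.79 ± 0.16 in WT and 0.70 ± 0.16 in KO on the log2 scale. The male means, KO and WT, did not differ beyond their spread, nor did the female means.

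H3f3a had 199, 214, 226, 212 and 227 CPM in male KO and 235, 250.2, 190.0, 237 and 203 CPM in male WT, a log2 fold change of −0.05 ± 0.17. It had 109, 120.4, 189 and 97.8 CPM in female KO and 158, 183, 103 and 249 CPM in female WT, a log2 fold change of −0.42 ± 0.20. All 5 male KO libraries lay above all 4 female KO libraries, and the male over female difference was 0.70 ± 0.19 in KO and 0.33 ± 0.19 in WT. From high to low the means were 223 ± 25.3 CPM in male WT, 215 ± 11.4 CPM in male KO, 173 ± 60.5 CPM in female WT and 129 ± 41.0 CPM in female KO, with overlap between neighbours.

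Sex and reads per UMI go together in these libraries, so the H3.3 values are set beside that measure. The female KO library highest in H3f3a (189 CPM) and in H3f3b (450 CPM), replicate 16, was the 1 female library in the lowest range of reads per UMI, where 7 of the 8 libraries are male. With the range of reads per UMI as a covariate, the male over female difference of H3f3b was 0.67 in WT and 0.65 in KO on the log2 scale. For H3f3a it was −0.15 in WT and 0.57 in KO, so the WT value changed sign. Within the middle range, which holds 2 male WT libraries against 1 female WT and 1 male KO library against 2 female KO, H3f3b differed by 0.81 in WT and 1.13 in KO and H3f3a by −0.02 in WT and 0.91 in KO. On read counts the WT values were 1.11 for H3f3b and 0.73 for H3f3a. The female KO over WT value of H3f3a was −0.79 with the covariate and −0.01 on read counts. Markers of other myeloid cells also moved with sex. In edgeR 8 of 8 tested monocyte markers, 10 of 10 neutrophil markers and 8 of 10 markers of border-associated macrophages were lower in male WT than in female WT. Monocyte markers summed to 48.3 to 79.0 CPM in male WT libraries, against 188 to 583 CPM in female WT libraries. Neutrophil markers summed to 314 to 1150 CPM in male WT libraries, against 2158 to 15663 CPM in female WT libraries. Markers of border-associated macrophages summed to 846 to 1069 CPM in male WT libraries, against 1189 to 1548 CPM in female WT libraries. In male KO against female KO, 5 monocyte, 4 neutrophil and 0 border-associated macrophage markers were lower. Each marker of these lists had UMIs in the sum over all libraries. The part of these markers in the sex differences of Hist1h1c, Hist1h1e, H3f3a and H3f3b was not tested.

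H3f3b gave 70.3% ± 2.08 of the UMIs of the H3.3 pair in male KO and 70.7% ± 1.03 in male WT (SD, n = 5 each), and 70.9% ± 3.24 in female KO and 65.0% ± 6.57 in female WT (SD, n = 4 each). The summed H3.3 level was 729 ± 71.8 CPM in male KO and 762 ± 89.0 CPM in male WT, and 445 ± 132 CPM in female KO and 484 ± 84.2 CPM in female WT. H3f3a, H3f3b, H2afz and the clustered histone genes have near-identical copies elsewhere in the genome. Reads that match several copies could be split between them or left uncounted. H1f0, H2afy, H3f3a and H2afx overlap genes on the opposite strand, and the labels do not state whether reads were counted by strand.

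Because the genes were chosen with their levels in view, the following counts describe them and nothing is read from the comparison with all genes. At a Benjamini-Hochberg adjusted p under 0.05 in edgeR's quasi-likelihood test, 3 of the 10 genes were called between male KO and male WT, the linker genes, all lower, and 6.24% of all 10948 tested genes were called in that comparison. Their median log2 fold change was −0.06, against −0.01 over all tested genes. Between female KO and female WT none of the 10 was called by edgeR or by DESeq2, and edgeR called 2.68% of all genes. An unadjusted p under 0.05 in edgeR was found for 5 of the 10. The share of all genes at that unadjusted threshold was not taken, so this count has no counterpart here. The median was −0.16, against 0.01 over all genes. Averaged over the sexes, Hist1h1c, H1f0 and Hist1h2bc were called, all lower, and 9.5% of all genes were called. For the difference between the KO effects, Hist1h1c was called, and 0.237% of all genes were. Between male WT and female WT, Hist1h1c, Hist1h1e and H3f3b were called, all higher, and 17.3% of all genes were called. Between male KO and female KO, H3f3a and H3f3b were called, both higher, and 7.1% of all genes were called.

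Groups without overlap can be set beside all genes in the same way. Male KO and male WT did not overlap for 3 of the 10 genes and for 9.85% of all tested genes. Female KO and female WT did not overlap for 1 gene, Hist1h2bc, and for 5.32% of all genes. Male WT and female WT did not overlap for 3 genes (Hist1h1c, Hist1h1e and H3f3b) and for 18.2% of all genes, and male KO and female KO for 2 genes (H2afz and H3f3a) and for 9.22% of all genes. The calls differed in how far they held under 21 alternative settings of the male comparison: Hist1h1c was called in 21, Hist1h1e in 19 and H1f0 in 7. H1f0 stayed between −0.66 and −0.37 on the log2 scale in all 21, and its call was lost when any male library other than male WT replicate 10 was left out. The Hist1h1e call was lost on read counts, at a log2 fold change of −1.01, and within the middle range of reads per UMI, at −0.99 with 1 male KO library, against −1.07 in all libraries. Between male KO and female KO, the H3f3b call was lost in 3 of 19 alternatives: without female KO replicate 7, without male KO replicates 6, 9 and 17, and with the KO groups alone in the fit. The H3f3a call was lost there in 8 of 19. Between male WT and female WT, the Hist1h1c call held in all 19 alternatives, the H3f3b call in 18 and the Hist1h1e call in 16. With the range of reads per UMI as a covariate the H3f3b and Hist1h1e calls were lost, at log2 differences of 0.67 and 0.90, and Hist1h1c stood at 1.26. Averaged over the sexes, the Hist1h2bc call was lost in 3 of 27 alternatives: with the range of reads per UMI as a covariate (log2 fold change −0.36), without female KO replicate 7 (−0.39) and within the middle range (−0.24). The H1f0 call was lost in 8 of 27 and the Hist1h1c call in 13 of 27.

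The other core histone genes with Hist symbols, most of which are replication-dependent, were taken as a list. Their levels are those of polyadenylated RNA, and mRNA without a poly(A) tail may be missed. Of 62 listed, 58 had UMIs and 17 passed the filter. In male KO 6 of the 17 fell and none rose, and 16 of the 17 fold changes were negative. Their median log2 fold change was −0.82, against −0.01 over all tested genes. The H4 gene Hist1h4d fell to 20.3 ± 5.77 CPM in male KO, against 46.4 ± 7.48 CPM in male WT (SD, n = 5 each), a log2 fold change of −1.21 ± 0.25 (edgeR adjusted p = 0.00399). Hist1h4h, also an H4 gene, averaged 4.23 ± 1.57 CPM in male KO and 12.1 ± 3.26 CPM in male WT, a log2 fold change of −1.48 ± 0.32 (edgeR adjusted p = 0.00474). The H2A gene Hist1h2ae averaged 3.06 ± 0.72 CPM in male KO and 7.24 ± 2.32 CPM in male WT, a log2 fold change of −1.25 ± 0.29 (edgeR adjusted p = 0.00927). The H4 gene Hist1h4c averaged 9.38 ± 1.49 CPM in male KO and 18.04 ± 4.71 CPM in male WT, a log2 fold change of −0.92 ± 0.22 (edgeR adjusted p = 0.00973).

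In female KO none of the 17 passed the test in edgeR or in DESeq2, 5 had an unadjusted p under 0.05 in edgeR, and the median log2 fold change was −0.38, against 0.01 over all genes. The gene of lowest p, the H2B gene Hist1h2bb, averaged 1.90 ± 0.49 CPM in female KO and 7.13 ± 3.26 CPM in female WT (SD, n = 4 each), a log2 fold change of −1.89 ± 0.54 (edgeR adjusted p = 0.0664). Summed over all 62 genes and scaled by the library total, the level was 132 to 174 CPM in male KO libraries, against 215 to 260.4 CPM in male WT libraries, without overlap, and 158 ± 14.7 CPM in female KO and 174 ± 13.7 CPM in female WT (SD, n = 4 each). Without male KO replicates 6, 9 and 17 none of the 17 passed in males, and on read counts 1 did, Hist1h4h. The log2 fold changes without these 3 libraries were −1.21 for Hist1h4d, −1.54 for Hist1h4h, −1.38 for Hist1h2ae and −0.99 for Hist1h4c, about as large as with them. No single library left out ended the male call of Hist1h4d, Hist1h4h, Hist1h2ae or Hist1h4c. None of the 17 passed for the difference between the KO effects in edgeR, so a difference between the sexes was not shown for them.

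**Figure D4:**
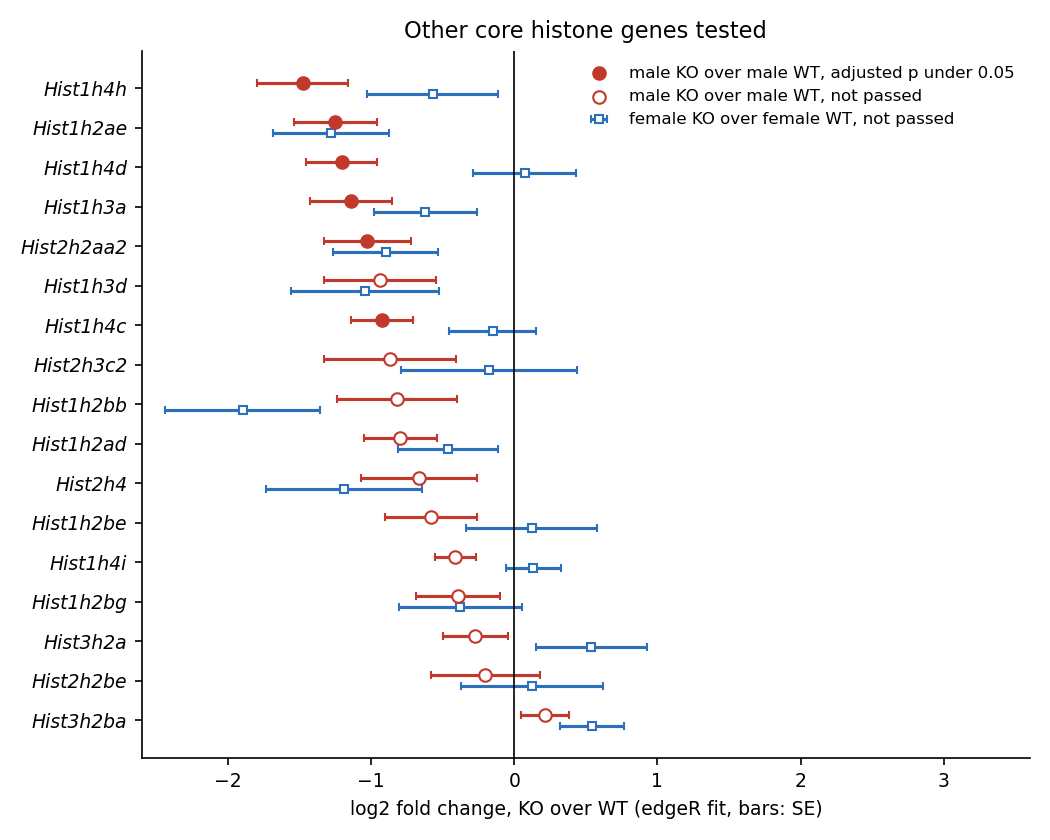
Log2 fold change of KO over WT (horizontal axis) of the 17 other core histone genes tested, in males (red circles, filled where the edgeR adjusted p was under 0.05) and females (blue squares, none of which passed), with bars for the SE. In males 16 of the 17 points lie left of 0, with Hist1h4h at −1.48.

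Genes that handle histones were largely without a call. Of 12 tested H3.3 chaperone genes none was called in males or in females by edgeR or DESeq2, and at an unadjusted p under 0.05 in edgeR there were 0 and 2. The gene of lowest p in males, Cabin1, part of the HIRA complex, had a log2 fold change of 0.22 ± 0.11 (edgeR adjusted p = 0.290). Of 18 genes of H2A.Z and macroH2A exchange, 1 rose in male KO, Znhit1, a subunit of the SRCAP complex. It averaged 79.3 ± 18.7 CPM in male KO and 48.8 ± 5.45 CPM in male WT, a log2 fold change of 0.68 ± 0.20 (edgeR adjusted p = 0.0382). In female KO none of the 18 was called by edgeR or DESeq2, with 3 at an unadjusted p under 0.05 in edgeR. Of 16 H1 chaperones and proteins that compete with H1 for binding, Hmgn3 fell in male KO, at 4.67 ± 1.51 CPM against 9.07 ± 1.46 CPM in male WT, a log2 fold change of −1.01 ± 0.29 (edgeR adjusted p = 0.0375). Cbx5, which encodes the heterochromatin protein HP1 alpha, rose in female KO, at 22.2 ± 8.25 CPM against 10.6 ± 1.49 CPM in female WT, a log2 fold change of 1.16 ± 0.24 (edgeR adjusted p = 0.0127).

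Of 18 genes that process stem-loop histone mRNA none was called by edgeR in either sex, with 2 at an unadjusted p under 0.05 in each, and DESeq2 called 1 in males and 0 in females. Snrpd3, an Sm protein also used in splicing, had the lowest p in males, a log2 fold change of 0.62 ± 0.19 (edgeR adjusted p = 0.0528). Of 14 genes of DNA replication and the histone assembly coupled to it, 4 rose in male KO and 3 in female KO, and none fell. The median log2 fold change was 0.52 in males and 0.27 in females, against −0.01 and 0.01 over all genes. Mcm2, a subunit of the replicative helicase that also binds histones, averaged 15.6 ± 2.17 CPM in male KO and 8.16 ± 1.78 CPM in male WT, a log2 fold change of 0.94 ± 0.18 (edgeR adjusted p = 0.00154). In females it averaged 22.7 ± 2.64 CPM in KO and 10.2 ± 1.81 CPM in WT, a log2 fold change of 1.16 ± 0.23 (edgeR adjusted p = 0.00986). In male KO the called replication genes were thus higher and the polyadenylated RNA of the called core histone genes lower. Whether their mRNA without a poly(A) tail differed was not tested. Of 2 other variant genes tested, Cenpa, which encodes the centromeric H3, rose in male KO, at 18.1 ± 2.84 CPM against 10.3 ± 1.21 CPM in male WT (log2 fold change 0.81 ± 0.20, edgeR adjusted p = 0.0160). Mcm2 passed in 19 of 20 alternatives in males and in 14 of 17 in females. Cenpa passed in 16 of 20, not without male KO replicate 17 or male WT replicate 11, and Cbx5 in 12 of 17, not without female WT replicate 30. Znhit1 passed in 11 of 20 and Hmgn3 in 12 of 20, and for both the call was lost without any of male KO replicate 17 and male WT replicates 10, 11, 13 and 37, and without male KO replicates 6 or 9 for Znhit1 and 36 or 40 for Hmgn3.

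In females markers of blood cells moved with genotype. Summed neutrophil markers were 991 to 5298 CPM in female KO and 2158 to 15663 CPM in female WT, and 5 of 10 tested fell in KO in edgeR. Monocyte markers summed to 112 to 197 CPM in female KO and 188 to 583 CPM in female WT, and 4 of 8 tested fell. Each marker of either list had UMIs in the sum over all libraries. The part of these markers in the female values of H2afx, H2afz and Hist1h2bc was not tested.

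Likeness between genes was measured as Pearson's r of log2 CPM over the 18 libraries after the mean of each group was subtracted, against 8047 genes of at least 3 on the log2 CPM scale. It is a description, since the points share library, depth and range of reads per UMI. H3f3a was most like Pcf11, a factor of pre-mRNA 3′ end cleavage (r = 0.96), and Tmem199 (r = 0.94). H3f3b was most like Pgrmc1 (r = 0.83) and Cnih1 (r = 0.81). Hist1h1c was most like Dusp1, a phosphatase of MAP kinases (r = 0.78), and Fcgrt, the neonatal Fc receptor (r = 0.77). Hist1h1e was most like Prpsap2 (r = 0.78) and Ano6 (r = 0.75), and H1f0 most like Med20 (r = 0.86) and Atp5s (r = 0.85). Hist1h2bc was most like Lsm7 (r = 0.84) and Lrwd1 (r = 0.75). Among the H2A variants, H2afx was most like Srbd1 (r = 0.88) and Cdk5rap2 (r = 0.87), and H2afy most like Tmem265 (r = 0.91) and Etv3 (r = 0.89). H2afz was most like Srsf2 (r = 0.83) and Mrps15 (r = 0.82), and H2afv most like Imp3 and Med24 (both r = 0.81). Between the linker genes themselves, Hist1h1c and Hist1h1e had r = 0.16 and Hist1h1c and H1f0 had r = −0.10, so within groups their levels varied largely apart.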

How the data were processed

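RNA of purified mouse microglia was profiled by bulk MARS-seq of polyadenylated 3′ ends with 30 ng of input, per the labels' protocols. The authors deposited whole-number counts per gene as 2 tables, reads before UMI correction and UMI-corrected counts, without scaling. Per the submitters' processing notes, cutadapt, STAR and HTSeq were used with the build mm10. Not given in the sources used here are the annotation release, strand setting and UMI method. The tables each held 16 columns that match no sample used here, and these were left out. Of 55414 identifiers, 52133 were given symbols from GENCODE M21 (GRCm38), which covered at least 99.916% of UMIs in each library.

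Samples were grouped by the sex and genotype in their titles. UMI-corrected counts of all 18 libraries were filtered with filterByExpr by group (10948 genes left), scaled by TMM and fitted with 1 mean per group in edgeR 4.0.16 (R 4.3.3), with quasi-likelihood tests, Benjamini-Hochberg adjustment over all tested genes and a threshold of 0.05. The common biological coefficient of variation was 17.8%. The SE of a log2 fold change is its absolute value over the root of its F statistic. Single genes and member sums are in TMM-scaled CPM, and marker and core histone sums in CPM of the library total. The script was tested on simulated data. Alternatives were another scaling, DESeq2 1.42.0, no filter, read counts, fewer groups in the fit, the range of reads per UMI as a covariate or held fixed, and left-out libraries. The fit without female WT replicate 30 was listed under separate settings. Counts of alternatives therefore include it more than once in every comparison that uses female WT. Fits within the middle or the highest range of reads per UMI were added after seeing the data.

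The 10 genes and the gene lists were chosen with earlier results of these data known. Named besides the 10 genes are, per list, up to 4 called genes of lowest p in a KO comparison, or the 1 of lowest p where none was called, and the 2 genes most like each. Depth limits precision most in the shallowest female libraries, and 3′ tags cannot always separate genes that overlap.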

Additional observations from a re-analysis of the deposited data

Results flagged for a closer look

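The KO effect on Hist1h1c differed between the sexes by 1.66 ± 0.24 on the log2 scale, female minus male, and it was picked out because the edgeR fit called this difference. All 5 male KO libraries lay below all male WT libraries, while the female KO libraries overlapped the WT libraries. Hist1h1c was among the genes chosen with its levels known, so the call is a description of the same libraries and supports nothing. The difference was 1.48 to 1.79 in 27 alternatives and was called in 25 of them. It was not called without male KO replicates 6, 9 and 17 or within the middle range of reads per UMI, which holds 1 male KO and 1 female WT library.

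In female KO, replicate 1 stood apart from the other libraries of its group for H1f0, at 24.2 CPM, against 28.3 to 28.9 CPM in the others. These are low counts, with 47 UMIs in replicate 1 and 11 UMIs in replicate 33, 1 of the others. Of 68 sets of values searched for such a library 1 was found, and chance finds one in about 1 of 20 sets.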

How the results depend on the processing

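No fold change of the 10 genes that was called changed sign in any alternative. Of the fold changes of the 10 genes under alternatives, 3 of 210 moved by more than the spread in males and 15 of 190 in females. The number of genes called depended more on the processing. Brackets give the range with 1 library or the pair of lowest depth left out. The number was 683 between male KO and WT (484 to 989), 222 on read counts, 1145 with the male groups alone in the fit and 196 without male KO replicates 6, 9 and 17. It was 293 between female KO and WT (71 to 680), 532 without the filter, 136 on read counts, 100 with the range of reads per UMI as a covariate and 71 without female WT replicate 30, which held the most neutrophil transcripts. With the female groups alone edgeR called 0, with 828 at an unadjusted p under 0.05, and DESeq2 on all libraries called 352. Averaged over the sexes it was 1040 (776 to 1584), 480 on read counts and 622 with the covariate. For the difference between the KO effects it was 26 (2 to 84), 76 in DESeq2, 238 without the filter, 10 on read counts, 1 without replicates 6, 9 and 17 and 2 without female WT replicate 30. Between male WT and female WT it was 1892 (1092 to 2087), 1188 on read counts, 271 with the covariate and 1092 without female WT replicate 30. Between male KO and female KO it was 777 (207 to 1782), 1354 without the filter, 312 on read counts, 235 with the KO groups alone, 326 with the covariate and 104 without replicates 6, 9 and 17. The cause of these differences was not tested, beyond fewer libraries in the fits that leave some out. The lowest range of reads per UMI holds no female WT library, so no female value was possible there. No paired analysis was possible because every library has a replicate number of its own.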

Other observations

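Genes that handle histones also differed between the sexes, in values chosen after they were seen. Anp32e, a chaperone that removes H2A.Z, averaged 55.8 ± 6.61 CPM in male WT (n = 5) and 29.02 ± 2.45 CPM in female WT (n = 4), a log2 fold change of 0.93 ± 0.14 (edgeR adjusted p = 0.000156), and passed in all 18 alternatives. In KO it averaged 61.1 ± 5.69 CPM in males and 39.6 ± 5.91 CPM in females, a log2 fold change of 0.58 ± 0.13 (edgeR adjusted p = 0.00964). There it passed in 15 of 18 alternatives, and leaving out female KO replicate 7 was among the 3 where it did not. Ptma, which encodes the H1-binding protein prothymosin alpha, averaged 194 ± 25.7 CPM in male WT and 85.6 ± 16.4 CPM in female WT, a log2 fold change of 1.15 ± 0.24 (edgeR adjusted p = 0.00235). With other settings its fold change ran from 0.42 to 1.76 and it passed in 17 of 18, not with the range of reads per UMI as a covariate. H2afj, a further H2A variant gene, averaged 130.3 ± 13.9 CPM in male WT and 189 ± 36.8 CPM in female WT, a log2 fold change of −0.53 ± 0.14 (edgeR adjusted p = 0.0109), and passed in 14 of 18, not without female WT replicate 30. Of the 18 genes that process stem-loop histone mRNA, 5 were lower in male WT than in female WT at an edgeR adjusted p under 0.05. Among them Snrpe averaged 26.7 ± 5.57 CPM in male WT and 65.6 ± 12.5 CPM in female WT, a log2 fold change of −1.29 ± 0.24 (edgeR adjusted p = 0.000901), and passed in 17 of 18, not with that covariate. All 8 tested monocyte markers and all 10 tested neutrophil markers were lower in male WT as well, as were 8 of 10 markers of border-associated macrophages. Sex and reads per UMI go together in these libraries.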
